A study of Mus musculus with 13 samples.

Results

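The comparison described here set SM1 tumours from mice that had received pmel-1 splenocytes against SM1 tumours from mice that had received control splenocytes, with neither arm given a drug. It was chosen by the labels for transfer and drug, and it took in 4 of the 13 arrays of the series: replicates 1 and 2 of the pmel-1 arm and replicates 1 and 3 of the control arm. SM1 is a transplantable mouse melanoma with the BRAF V600E mutation, grown here in C57BL/6 mice. The donor cells of the pmel-1 arm were splenocytes of the pmel-1 strain, which has a transgenic T cell receptor for gp100, the product of the pigment cell gene Pmel, and those of the control arm were splenocytes of C57BL/6 mice. All 4 arrays held tumour RNA from mice given vehicle, so by the labels the arms differed in the transferred cells alone. Host immune cells are part of the tissue to the extent that the mice still had them. The sources used here give no doses, times, ages or conditioning of the mice. The labels do not tie replicates to separate mice, and the p-values therefore rest on the spread among these arrays, which may be technical. The question the comparison addresses is what tumour-specific T cells did to the tumour's RNA when no BRAF or MEK inhibitor was present.

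Adoptively transferred T cells that meet their antigen release interferon gamma, which acts through its receptor on neighbouring cells. Promoters of its target genes often hold a gamma-activated sequence (GAS) or an interferon-stimulated response element (ISRE), the latter bound by IRF1. These targets include guanylate-binding proteins and immunity-related GTPases, the chemokines Cxcl9, Cxcl10 and Cxcl11 that draw T cells through CXCR3, the immunoproteasome, and the MHC molecules. In tumours such genes are widely read as a trace of T cell activity. Whole tumour RNA mixes melanoma cells with host cells, so more cells of a type and more RNA per cell cannot be told apart in any value below.

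Values are log2 intensities per probe set from Affymetrix GeneChip mouse arrays, 1 probe set a gene. Values below 5.79, the 40th percentile of all values, are called low, and where every array of 1 arm was low the gap is given as a lower bound, the brighter arm's mean against 5.79. Fitted differences of such genes take the low readings as they stand and are named as fitted. Differences are pmel-1 minus control on the log2 scale with the SE of the limma fit over all 13 arrays. The control array with replicate number 3 also carried skeletal muscle transcripts, described with its values further on, so each main result is given again with control replicate 1 as the only control array.

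The promoters of 4 genes that were higher on both pmel-1 arrays are printed to show the kind of sequence the interferon pathway acts on. They were chosen after their values were seen, from the interferon gamma and antigen-processing lists. Each run is the RefSeq window from 250 bases before to 50 bases after the annotated start (GRCm38.p6), read 5′ to 3′ on the gene's strand, with matches to GAS (TTCNNNGAA) or ISRE (GAAA, any 2 bases, GAAA) on either strand in capitals. Igtp and Irgm2, which encode immunity-related GTPases that act at pathogen vacuoles, lie at chr11:58199306-58199605 and chr11:58214727-58215026, both on the plus strand. Gbp2, a guanylate-binding protein of the same defence, lies at chr3:142620413-142620712 on the plus strand, and Psmb8, a catalytic subunit of the immunoproteasome, at chr17:34197945-34198244 on the plus strand.
Igtp: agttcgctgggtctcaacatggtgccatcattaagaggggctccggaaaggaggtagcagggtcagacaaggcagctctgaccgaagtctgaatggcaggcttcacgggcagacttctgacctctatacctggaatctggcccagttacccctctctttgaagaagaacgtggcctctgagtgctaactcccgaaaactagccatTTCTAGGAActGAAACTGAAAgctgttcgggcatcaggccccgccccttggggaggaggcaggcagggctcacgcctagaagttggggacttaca
Irgm2: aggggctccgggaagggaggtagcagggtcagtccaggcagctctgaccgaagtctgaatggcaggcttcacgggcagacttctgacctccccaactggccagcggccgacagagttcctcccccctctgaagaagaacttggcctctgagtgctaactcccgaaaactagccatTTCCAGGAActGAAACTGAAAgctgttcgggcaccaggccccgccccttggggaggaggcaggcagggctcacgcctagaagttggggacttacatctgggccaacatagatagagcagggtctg
Gbp2: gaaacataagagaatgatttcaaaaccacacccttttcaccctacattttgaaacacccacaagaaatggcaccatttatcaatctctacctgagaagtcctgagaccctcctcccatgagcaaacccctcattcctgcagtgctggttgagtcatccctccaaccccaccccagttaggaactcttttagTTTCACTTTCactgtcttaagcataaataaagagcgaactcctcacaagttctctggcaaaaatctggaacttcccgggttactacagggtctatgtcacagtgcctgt
Psmb8: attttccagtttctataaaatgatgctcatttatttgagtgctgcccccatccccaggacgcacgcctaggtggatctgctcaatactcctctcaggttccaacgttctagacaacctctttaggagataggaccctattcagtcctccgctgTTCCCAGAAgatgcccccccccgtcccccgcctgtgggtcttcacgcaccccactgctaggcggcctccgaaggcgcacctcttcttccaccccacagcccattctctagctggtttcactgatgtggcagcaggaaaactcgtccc
The windows of Igtp and Irgm2 each held both motifs, GAS at -45 and ISRE at -34 bases from the start in Igtp, and GAS at -75 and ISRE at -64 in Irgm2. Gbp2 held an ISRE on the opposite strand at -59 and no GAS, and Psmb8 a GAS at -97 and no ISRE. Of 27025 genes with a promoter entry, 9.55% held a GAS and 3.99% an ISRE. Among the 15 genes of the interferon gamma list that were tested and had an entry, 5 held a GAS (33.3%) and 8 an ISRE (53.3%). The window of Cxcl9 held neither string of letters. A match describes the letters only.

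No gene passed the test for the transfer under vehicle. With limma over all 13 arrays and Benjamini-Hochberg adjustment, 0 of 13785 genes (0%) had an adjusted p under 0.05, and 1822 (13.2%) had an unadjusted p under 0.05, 788 of them higher (5.72%) and 1034 lower (7.5%) in pmel-1 tumours. The smallest adjusted p was 0.0671, shared by 4 genes, and 17 genes were under 0.1, 10 higher and 7 lower. The median difference over all genes was -0.02. In size, 46 genes (0.334%) were at least 2-fold higher with both pmel-1 arrays above both control arrays, and 16 (0.116%) were at least 2-fold lower with both below. Of these, 20 and 6 were still at least 2-fold apart from control replicate 1 alone. In that comparison 0 genes passed, the smallest adjusted p was 0.511, and 812 genes (5.89%) had an unadjusted p under 0.05, 285 higher (2.07%) and 527 lower (3.82%). The count depended on which arrays entered: 2 genes passed with only the 4 arrays compared, 48 without control replicate 1 and 38 without pmel-1 replicate 2, all by limma.

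The gene with the smallest p was Iigp1, an immunity-related GTPase induced by interferon gamma. It read 4.998 and 5.11 in the control tumours and 7.61 and 7.72 in the pmel-1 tumours. The groups lay far apart and each pair read alike, so the value did not rest on one array. With both controls low, the pmel-1 arm was at least 3.66-fold higher. The fitted difference was 2.61 ± 0.32 (SE, 2 against 2 arrays, limma adjusted p = 0.0671) and 2.67 without control replicate 3. Over 14 alternatives its adjusted p ranged from 0.00632 to 0.511, and it passed in 7 of them.

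Interferon gamma-inducible genes were more often higher than lower in pmel-1 tumours, although none passed the test. Of 25 genes listed, 21 were measured and 20 tested. Both pmel-1 arrays were above both control arrays for 12 of the 20, against 20.1% of all genes tested, and below them for 2, against 26.4%. Against control replicate 1 alone 14 were above, beside 32.8% of all genes, and 3 below, beside 40.9%. The median difference was 0.40 over the list and 0.55 without control replicate 3, beside -0.02 over all genes in both cases. It was 0.37 with the 6 genes that had a low arm set to their bound, or to 0 where both arms were low. At an unadjusted p under 0.05, 5 were higher, against 5.72% of all genes, and none lower, while 0 passed after adjustment.

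Cxcl9, a chemokine that draws activated T cells, read 4.33 and 4.27 in control tumours and 5.64 and 6.503 in pmel-1 tumours. The 2 arms did not overlap, although pmel-1 replicate 1 was still below 5.79. The pmel-1 arm was at least 1.22-fold higher, and the fitted difference was 1.77 ± 0.34 (SE, adjusted p = 0.126), or 1.75 without control replicate 3.

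Gbp2 read 4.69 and 5.02 against 6.89 and 6.88, at least 2.13-fold higher over low controls, with a fitted difference of 2.03 ± 0.48 (adjusted p = 0.179). Igtp read 6.15 and 6.73 against 7.75 and 7.60, which was 2.34-fold higher (1.23 ± 0.33, adjusted p = 0.184). For both genes the pmel-1 arrays agreed closely and stood above each control array. Irgm2 read 6.10 and 5.77 against 6.95 and 6.41 (0.75 ± 0.32), and its difference was 0.59 without control replicate 3.

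Other guanylate-binding proteins and GTPases lay in the same direction with smaller differences. Gbp6 read 5.08 and 5.37, both low, against 6.06 and 6.23, and Gbp7 6.11 and 6.32 against 6.91 and 6.84. Irgm1 read 7.93 and 8.07 against 8.45 and 8.60. None of these 3 had an unadjusted p under 0.05.

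The pathway's own regulators differed by less. Irf1, the transcription factor that reads the ISRE, gave 8.84 and 8.82 in control and 9.19 and 9.01 in pmel-1 tumours (0.27 ± 0.31). Nlrc5, the transactivator of MHC class I genes, gave 9.23 and 9.40 against 9.35 and 9.45, with overlapping arms. Irf8, a myeloid and interferon-induced factor, was one of the 2 list members with both pmel-1 arrays below the controls, at 10.48 and 10.47 against 9.33 and 10.34 (-0.64 ± 0.37). The 3 CXCR3 ligands did not share a direction. Cxcl10 read 7.69 and 8.44 against 8.75 and 8.16, with overlap, and Cxcl11 read 7.499 and 7.83 against 7.37 and 7.30, lower on both pmel-1 arrays. Ido1 was low on all 4 arrays and was not tested.

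**Figure D1:**
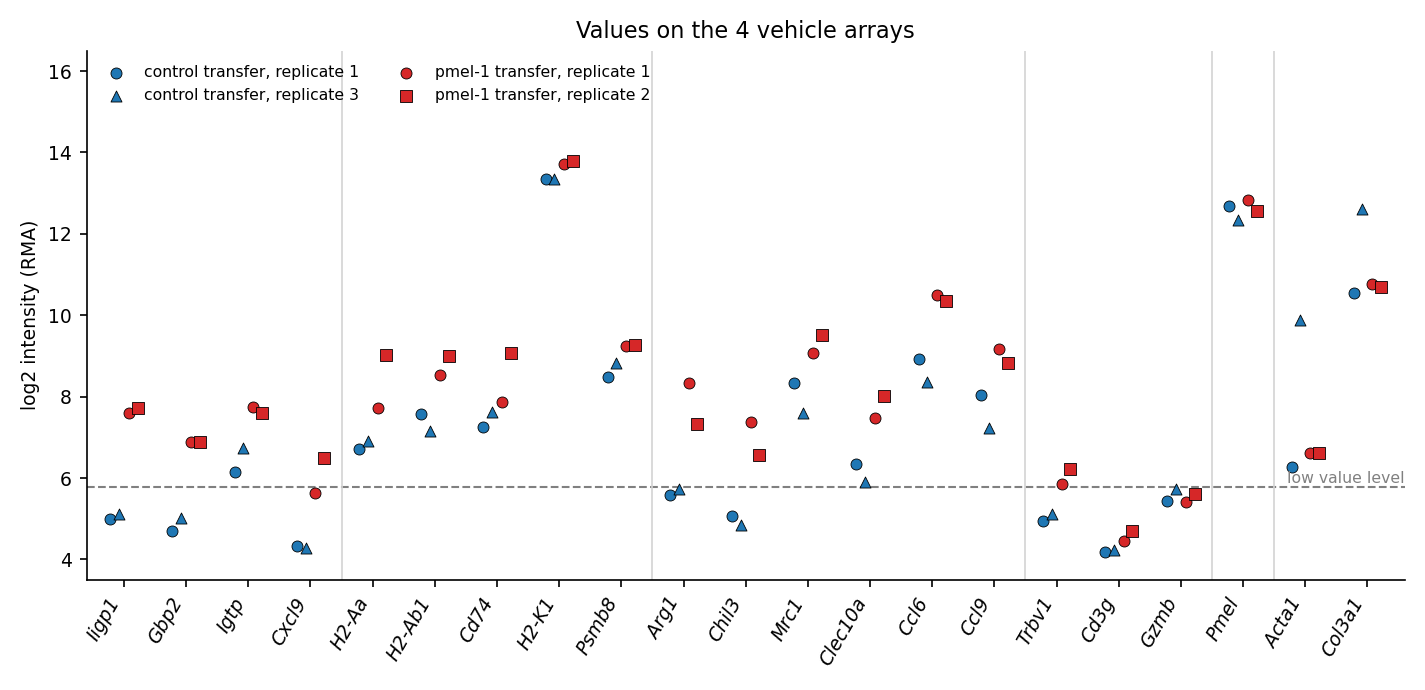
Log2 intensity (y axis) of 21 genes on each of the 4 vehicle arrays, control in blue and pmel-1 in red, with the level of 5.79 dashed. Iigp1, Gbp2 and Cxcl9 stand apart between arms with control arrays close together, while Acta1 and Col3a1 are high on control replicate 3 alone and Pmel overlaps.

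Genes of the type I interferon response differed less. Of 22 tested, 5 were above and 2 below both control arrays, a share above near the 20.1% of all genes. The median difference was 0.10, between -2.2e-05 without control replicate 1 and 0.20 without control replicate 3. Rsad2, an antiviral enzyme, read 7.89 and 7.25 against 8.69 and 8.25 (0.90 ± 0.34, adjusted p = 0.298). Its difference was 0.58 without control replicate 3, the array with the lowest value. Isg20, an antiviral nuclease, read 7.12 and 6.95 against 7.61 and 7.51.

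MHC class II genes had the highest median among the immune lists with at least 5 genes tested, 0.48 over 9 genes and 0.65 without control replicate 3, with 0.38 without pmel-1 replicate 2 and 0.82 without pmel-1 replicate 1. Class II molecules present extracellular peptides to CD4+ T cells and are made by macrophages, dendritic cells and B cells, and by other cells under interferon gamma. Both pmel-1 arrays were above both control arrays for 5 of the 9 and below for 1, beside 20.1% and 26.4% of all genes. H2-Ab1, a class II beta chain, read 7.58 and 7.14 in control and 8.53 and 9.003 in pmel-1 tumours. It was 2.65-fold higher (1.40 ± 0.31, adjusted p = 0.175). H2-Aa, the matching alpha chain, read 6.72 and 6.92 against 7.73 and 9.02 (1.55 ± 0.41, adjusted p = 0.182), and Cd74, the invariant chain that escorts both, read 7.25 and 7.63 against 7.86 and 9.08 (1.03 ± 0.38). In H2-Aa and Cd74 the pmel-1 arrays differed from each other by more than the control arrays did, replicate 2 being the higher. Ctss, the protease that trims the invariant chain, read 9.25 and 9.48 against 9.96 and 10.33. H2-Eb1 gave 7.44 and 7.78 against 7.75 and 8.43, with overlap.

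MHC class I genes, which nearly all nucleated cells use to show peptides to CD8+ T cells, started from a high level and differed by less. Over 16 genes the median was 0.20, and 0.17 without control replicate 3. Of the 16, 9 were above and 1 below both control arrays, beside 20.1% and 26.4% of all genes. H2-K1, a classical class I heavy chain, read 13.34 and 13.36 in control and 13.72 and 13.80 in pmel-1 tumours. The difference was 1.33-fold and its SE small (0.41 ± 0.09, adjusted p = 0.175). H2-D1, the other classical chain, read 13.54 and 13.57 against 13.78 and 13.95. Psmb8 read 8.48 and 8.83 against 9.25 and 9.28 (0.62 ± 0.19), and Psmb9, its partner subunit, 9.44 and 9.46 against 9.79 and 10.17. Tap1, which carries peptides into the endoplasmic reticulum, read 9.41 and 9.38 against 9.87 and 9.90.

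Transcripts of T cells themselves were low for many genes of the list on all 4 vehicle arrays. Of 20 genes listed, 17 were measured, and 10 passed the filter on low values, 2 of which were low on all 4 vehicle arrays and passed through other arrays. Of those 10, 5 were above both control arrays, 1 below and 4 overlapped, beside 20.1% of all genes above and 26.4% below. The median was 0.13 (0.23 without control replicate 3, 0.05 without control replicate 1). It was 0.01 with the 3 genes that had a low arm set to their bound or to 0. Cd3g, a CD3 signalling chain, was low on every array at 4.17 and 4.23 against 4.46 and 4.70. Cd3d read 5.80 and 5.86 against 6.06 and 6.25, and Cd3e 6.69 and 6.95 against 6.99 and 7.07. The differences of Cd3d and Cd3e were 0.33 ± 0.17 and 0.21 ± 0.15, with adjusted p-values of 0.465 and 0.634. Cd8a, which marks the killer T cells, overlapped at 6.29 and 6.48 against 6.52 and 6.29. Trbv1, a variable segment of the T cell receptor beta chain, had the lowest p of the list, at 4.95 and 5.11 against 5.85 and 6.22 (fitted difference 1.01 ± 0.33, adjusted p = 0.242), at least 1.18-fold higher over low controls. Cd247, Cd2, Cd5, Cd8b1, Cd28, Trat1 and Il7r were low on all 4 vehicle arrays and were not tested.

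Cytotoxic genes could hardly be compared at these levels. Of 15 genes measured 9 were tested, 5 of which were low on all 4 vehicle arrays and passed the filter through other arrays. Of the 9, 1 was above both control arrays and 8 overlapped, beside 20.1% of all genes above. Gzmb, the granzyme of activated killer cells, was low at 5.43 and 5.72 against 5.41 and 5.61, and Gzma at 5.30 and 5.73 against 5.41 and 5.10. Prf1, which forms the pores, was the 1 gene above, at 5.79 and 5.95 against 6.13 and 6.11 (0.24 ± 0.14). Ifng, the cytokine whose targets are listed above, read 3.47 and 3.36 against 3.26 and 3.36, low throughout and not tested. Among immune checkpoints 2 of 9 genes tested were above both control arrays, near the 20.1% of all genes. Their median was 0.12, between 0.01 without control replicate 1 and 0.23 without control replicate 3. Cd274, which encodes PD-L1, read 6.14 and 6.06 against 6.48 and 6.35 (0.32 ± 0.29), while Pdcd1 and Ctla4 were low and not tested.

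General leukocyte genes had a median of 0.26 over 15 genes (0.35 without control replicate 3). Of the 15, 9 were above both control arrays and none below, beside 20.1% and 26.4% of all genes. Cd52, a surface glycoprotein of lymphocytes and monocytes, read 6.19 and 6.26 against 7.18 and 7.39, which was 2.09-fold higher (1.06 ± 0.23, adjusted p = 0.175). Ptprc, which encodes CD45, gave 6.52 and 6.57 against 6.67 and 6.94 (0.26 ± 0.27), so the common marker of all leukocytes differed by less than its SE.

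Macrophage genes lay higher more often than not. Of 19 tested, 12 were above and 2 below both control arrays, beside 20.1% and 26.4% of all genes. The median was 0.31 with or without control replicate 3. It was 0.15 without control replicate 1 and 0.20 without pmel-1 replicate 2. Fcgr3, an Fc receptor, read 7.19 and 7.28 against 8.09 and 8.30 (0.96 ± 0.26, adjusted p = 0.184). Cd68, a lysosomal protein of macrophages, read 7.91 and 8.01 against 8.70 and 8.40, and C1qc, a complement subunit made by macrophages, 8.29 and 8.44 against 8.81 and 8.92. Csf1r, the receptor that keeps macrophages alive, read 8.45 and 8.81 against 8.85 and 9.12 (0.36 ± 0.32). Itgam was low and not tested.

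Gaps of 2-fold or more were also measured in some genes of alternatively activated macrophages, the kind linked to tissue repair and to suppression of T cells. Over the 12 genes tested, 8 were above and 2 below both control arrays, beside 20.1% and 26.4% of all genes. The median was 0.37 (0.28 without control replicate 3). Arg1, an arginase that depletes the arginine T cells need, read 5.59 and 5.74 in control and 8.33 and 7.33 in pmel-1 tumours. Both control arrays were low while both pmel-1 arrays were well above 5.79. The pmel-1 arm was at least 4.12-fold higher, and the fitted difference was 2.17 ± 0.46 (adjusted p = 0.175), or 2.24 without control replicate 3. Chil3, a chitinase-like lectin, read 5.08 and 4.85 against 7.39 and 6.57, at least 2.28-fold higher over low controls (fitted difference 2.02 ± 0.31, adjusted p = 0.0712). Arg1 and Chil3 were higher on pmel-1 replicate 1 than on replicate 2, the opposite of the class II genes.

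Mrc1, the mannose receptor, read 8.33 and 7.59 against 9.07 and 9.504 (1.33 ± 0.32, adjusted p = 0.179). Clec10a, a lectin of macrophages and dendritic cells counted in the dendritic cell list, read 6.35 and 5.90 against 7.49 and 8.01, which was 3.08-fold higher (1.62 ± 0.36). F13a1, the transglutaminase chain of clotting factor XIII found in such macrophages and a member of no list, read 8.77 and 8.41 against 9.61 and 9.94 (1.18 ± 0.19, adjusted p = 0.0712). For each of these 3 the lowest array was control replicate 3, and the differences without it were 0.95, 1.39 and 1.003. Lyve1, a hyaluronan receptor of lymphatic vessels and some macrophages, read 6.54 and 5.44 against 7.30 and 7.73, and its difference went from 1.52 ± 0.50 to 0.97. Msr1, a scavenger receptor, read 7.13 and 6.81 against 7.70 and 7.47. The genes named here are higher ones: 9 of the 12 tested had a positive difference, and the lowest was -0.21. Retnla had a fitted difference of -0.01, with the pmel-1 arm low.

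Among chemokines, 9 of 21 genes tested were above and 3 below both control arrays, beside 20.1% and 26.4% of all genes. Cxcl9 was among the 9. Ccl6, a CC chemokine of myeloid cells, read 8.92 and 8.36 in control and 10.50 and 10.36 in pmel-1 tumours. It was 3.45-fold higher (1.79 ± 0.28, adjusted p = 0.0712), and its difference was 1.51 without control replicate 3. Ccl9 read 8.03 and 7.22 against 9.17 and 8.82 (1.37 ± 0.35), and Ccl12, a monocyte attractant that binds CCR2, 6.96 and 6.32 against 7.78 and 7.79 (1.15 ± 0.34). Ccl8 read 8.35 and 8.30 against 8.84 and 9.60. Ccl5, which T cells and macrophages release, gave 7.23 and 7.66 against 7.87 and 7.91 (0.45 ± 0.30). Neutrophil, dendritic cell and B cell lists had medians of 0.05, -0.05 and -0.08 over 5, 8 and 5 genes tested, and of 0.01, 0.03 and 0.03 without control replicate 3.

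**Figure D2:**
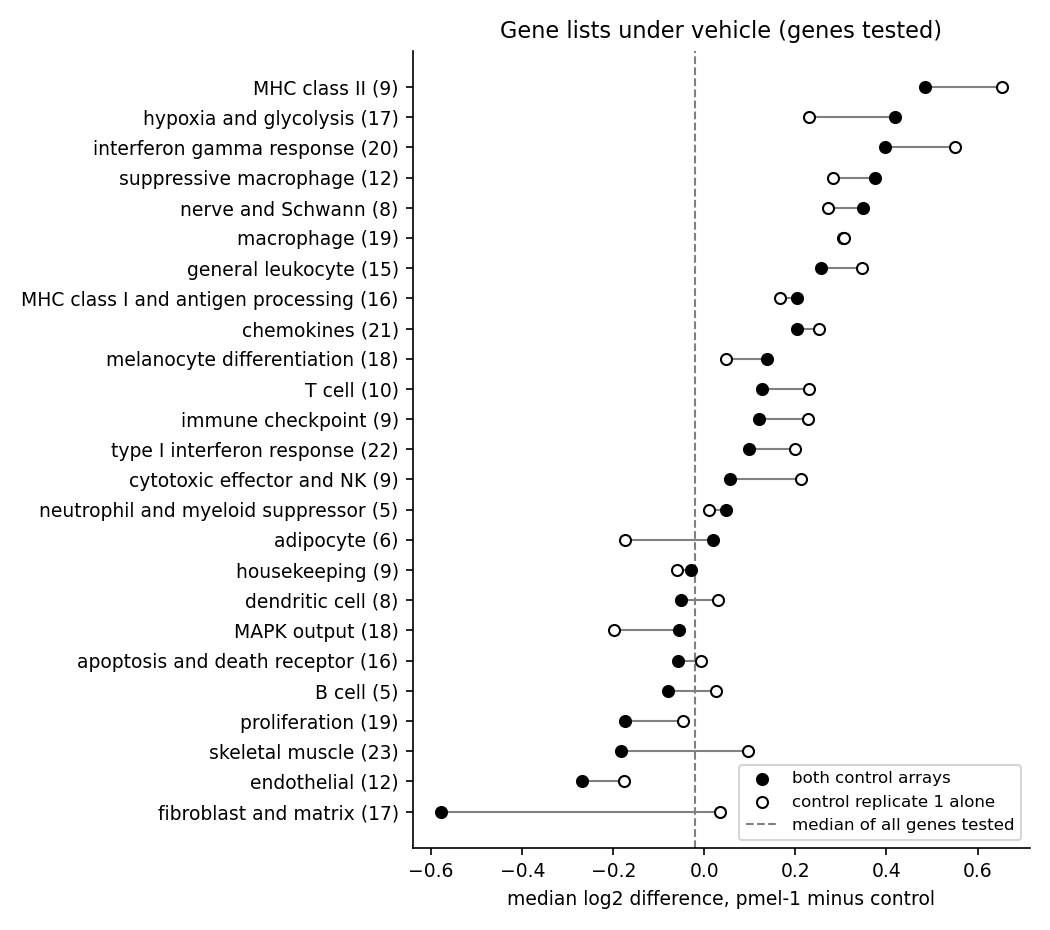
Median log2 difference (x axis) of the lists with at least 5 genes tested, over both control arrays (filled) and against control replicate 1 alone (open), with the number tested in brackets and the median of all genes dashed. MHC class II and interferon gamma lists lie right of the dashed line on either measure, while fibroblast and muscle lists move from below it to at or above it.

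Pmel, whose product gp100 the donor T cells recognise, was among the brighter genes on every vehicle array. It read 12.67 and 12.34 in control tumours and 12.82 and 12.56 in pmel-1 tumours. The arms overlapped, with a difference of 0.19 ± 0.15 (SE, adjusted p = 0.69) that was 0.02 without control replicate 3. Tyr, which makes melanin, read 12.79 and 12.83 against 12.97 and 12.97, and Dct 14.36 and 14.32 against 14.47 and 14.47. Of 18 melanocyte genes tested, 7 were above and 1 below both control arrays, beside 20.1% and 26.4% of all genes. Their median was 0.14, and 0.05 without control replicate 3. The list's widest gap was in Mc1r, the melanocortin receptor, at 8.44 and 8.15 against 9.15 and 8.97 (0.77 ± 0.19, adjusted p = 0.179). Kcnj13, a potassium channel of pigment cells, read 5.44 and 5.76 against 6.34 and 6.18, and Rab27a, which moves melanosomes, 9.21 and 8.59 against 9.46 and 9.38.

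Control replicate 3 stood apart in genes of skeletal muscle and of matrix. Of 34 muscle genes measured, 27 were above 5.79 on that array, against 17 on control replicate 1 and 17 and 19 on the pmel-1 arrays. Their summed intensity was 5435 there, against 3086 on control replicate 1, 3351 and 3165 in pmel-1 tumours and 3227 to 4072 on the other 9 arrays. Acta1, skeletal alpha-actin, read 6.26 and 9.90 in control and 6.61 and 6.61 in pmel-1 tumours. Its difference went from -1.47 ± 0.79 to 0.35 without that array. Tnnc2, fast troponin C, read 5.75 and 8.25 against 5.78 and 5.79, and Mylpf, a fast myosin light chain, 7.21 and 8.88 against 7.11 and 7.003. The part of this other tissue in the remaining results was not tested beyond leaving the array out. Without control replicate 1, so that control replicate 3 was the only control, these 3 were among the 48 genes that passed.

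Fibroblast and matrix genes showed the same array apart within the vehicle arrays, with control replicate 3 the highest of the 4 for 15 of 17 tested. Unlike the muscle list, its mean over this list (10.41) was within the range of the drug-treated arrays. The control combination arrays read 10.43 and 10.92, and pmel-1 dabrafenib replicate 2 read 10.48. Col1a1 and Col3a1, chains of fibrillar collagen, read 8.85 and 10.77 against 9.30 and 8.52, and 10.55 and 12.61 against 10.77 and 10.71. The list's median went from -0.58 to 0.04 without control replicate 3. Col8a1 read 7.40 and 9.75 against 7.20 and 6.69, and Cdh11, a cadherin of stromal cells, 6.14 and 8.59 against 5.86 and 5.87. Acta2, the actin of myofibroblasts, read 9.84 and 11.04 against 9.75 and 9.16. Of 12 endothelial genes, 8 were below both control arrays and 1 above, beside 26.4% and 20.1% of all genes, with a median of -0.27 (-0.18 without control replicate 3). Kdr, the VEGF receptor, read 7.83 and 8.40 against 7.55 and 7.52, and Cdh5, the junction protein of vessels, 7.40 and 7.49 against 7.03 and 6.82 (-0.52 ± 0.26).

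**Figure D3:**
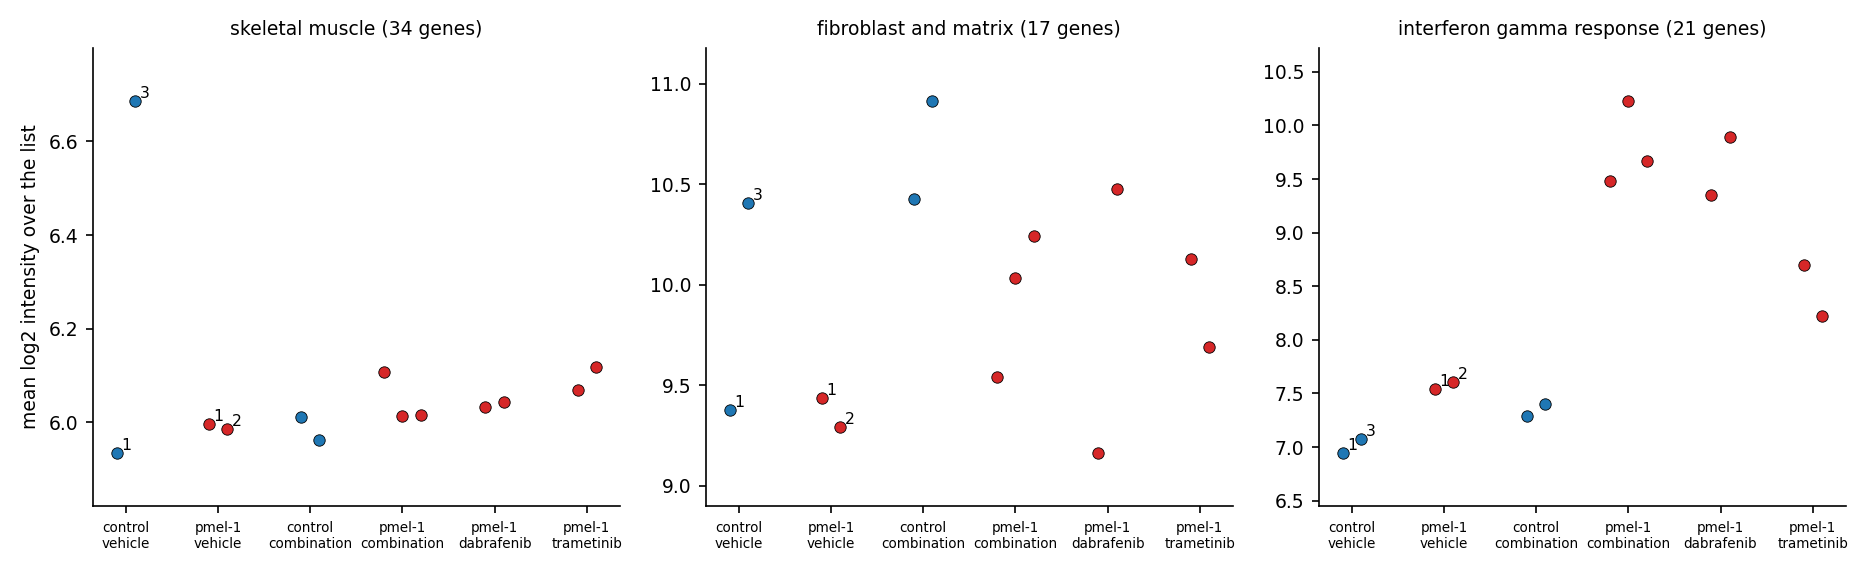
Mean log2 intensity (y axis) over the measured genes of 3 lists in each of the 13 arrays by group, control recipients in blue and pmel-1 recipients in red, with replicate numbers on the vehicle arrays. Control vehicle replicate 3 is the highest array for the muscle list, whereas in the interferon gamma panel both pmel-1 vehicle arrays lie above both control vehicle arrays and below the drug-treated pmel-1 arrays.

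**Figure D4:**
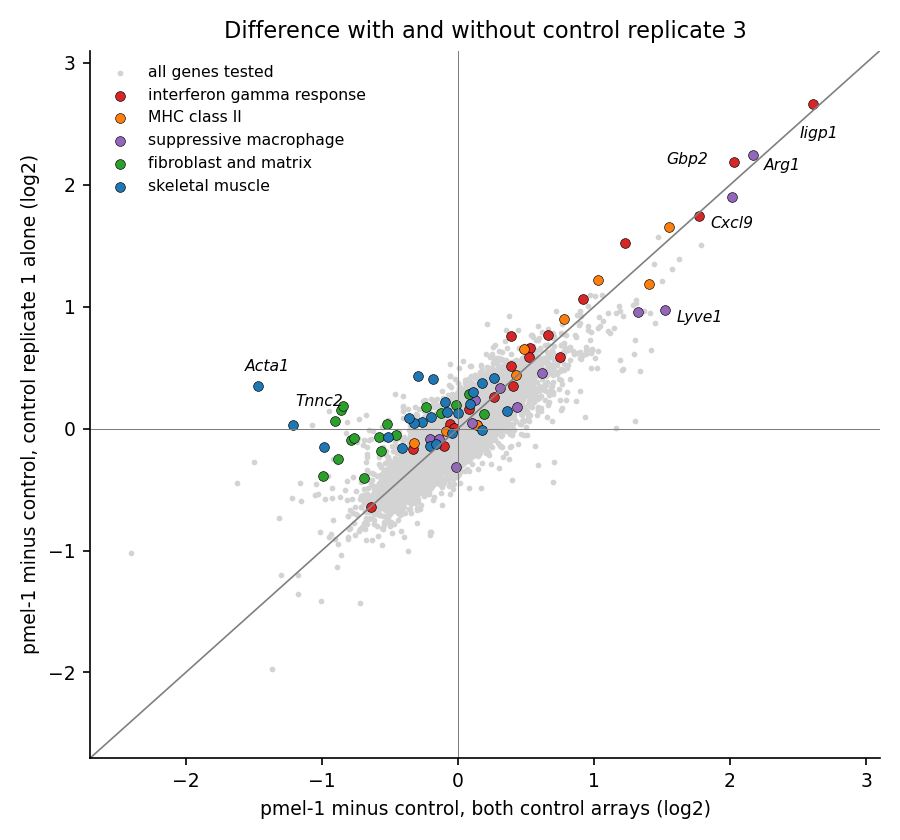
Log2 difference of each of 13785 genes with both control arrays (x axis) and with control replicate 1 alone (y axis), with members of 5 lists in colour and the diagonal marking equal values. Iigp1, Arg1, Gbp2 and Cxcl9 lie on or near the diagonal, and muscle and matrix genes such as Acta1 and Tnnc2 lie to the left of zero and close to the zero line of the y axis.

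Hypoxia and glycolysis genes had a median of 0.42 over 17 genes. Of the 17, 13 were above both control arrays and none below, beside 20.1% and 26.4% of all genes. Control replicate 3 was the lowest of the 4 arrays for 15 of the 17, and without it the median was 0.23. Ndrg1, a stress-induced gene, read 10.54 and 9.70 against 11.30 and 10.95, its difference going from 1.01 ± 0.29 to 0.58. Adm, the vessel-dilating peptide adrenomedullin, read 10.15 and 9.49 against 10.64 and 10.38, and Slc2a1, the glucose transporter GLUT1, 12.05 and 11.75 against 12.35 and 12.29. Among 8 nerve and Schwann cell genes 5 were above both control arrays, beside 20.1% of all genes. Mbp, a myelin protein, read 10.15 and 9.49 against 10.91 and 10.71 (0.98 ± 0.19, adjusted p = 0.126), and its difference was 0.65 without control replicate 3. Of 19 proliferation genes 9 were below both control arrays and 1 above, beside the same 26.4% and 20.1%, with a median of -0.17 (-0.05 without control replicate 3, the highest array for 12 of them).

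The 10 genes with the smallest p held few interferon genes. Beside Iigp1, Chil3, Ccl6 and F13a1 they were Cpm, Hsph1, Mfsd2a, Kbtbd8, Klf15 and C77080. Cpm, a membrane carboxypeptidase of macrophages, read 6.40 and 5.87 against 8.01 and 7.41, which was 2.98-fold higher (1.57 ± 0.21, adjusted p = 0.0671; 1.31 without control replicate 3). Hsph1, a co-chaperone of HSP70, was lower in pmel-1 tumours, at 10.21 and 10.54 against 9.39 and 9.34 (-1.01 ± 0.14, adjusted p = 0.0671). Mfsd2a, a lipid transporter, was lower too, at 6.93 and 6.998 against 6.29 and 6.15. Kbtbd8, an adaptor for a ubiquitin ligase, read 6.79 and 6.73 against 5.44 and 5.73, and Klf15, a metabolic transcription factor, 9.16 and 8.85 against 9.98 and 9.67. C77080 read 9.04 and 8.90 against 9.84 and 9.62.

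Against control replicate 1 alone, the 10 smallest p-values included 5 of those genes, Iigp1, Cpm, Hsph1, Mfsd2a and Kbtbd8. The others were Hoxa11os, Mtfp1, Crmp1, Serpini1 and Cep76. Hoxa11os, an antisense transcript of a homeobox gene, read 9.77 and 8.55 in control and 7.37 and 8.22 in pmel-1 tumours. Mtfp1, a mitochondrial fission protein, read 8.36 and 8.13 against 7.39 and 7.65, and Cep76, a centriole protein, 7.90 and 7.52 against 7.19 and 7.24. Crmp1 and Serpini1, both known from neurons, were high on control replicate 1 alone, at 7.67 and 6.38 against 6.76 and 6.89, and 7.42 and 6.15 against 6.41 and 6.43. Of the 87 genes followed through the alternatives in which they were tested, 44 had other probe sets, and of those 81 probe sets 10 pointed the opposite way. Only for Cd8a and Prf1 was such a probe set above 5.79 on at least 1 of the 4 arrays.

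The same transfer comparison was made in mice given dabrafenib and trametinib together, on 3 pmel-1 and 2 control arrays that are not among the 4 here. The test of the difference between the 2 transfer effects passed for 39 of 13785 genes (0.283%), 32 of them (0.232%) with the wider gap toward pmel-1 under the drugs and 7 (0.0508%) the other way. The interferon gamma list had 6 such genes of 20, MHC class I 4 of 16, MHC class II 3 of 9 and the T cell list 3 of 10. The T cell count includes Cd3g, which was low on all 4 vehicle arrays and in the control arm under the drugs. It entered the test through drug-treated pmel-1 arrays alone, where it was high. Trbv1, in the same count, and Cxcl9, in the interferon gamma count, were low in both control arms and entered through pmel-1 arrays alone. The calls of Cd3g, Trbv1 and Cxcl9 are therefore not independent of those levels. Cxcl9 differed between the arms by 5.95 ± 0.31 under the drugs against 1.77 under vehicle (limma interaction 4.17 ± 0.45, adjusted p = 0.0225). Psmb8 differed by 2.56 ± 0.18 against 0.62 (1.94 ± 0.26, adjusted p = 0.0391), and H2-Eb1 by 3.25 ± 0.26 against 0.48 (adjusted p = 0.0391). The macrophage list had a median of 0.31 under vehicle and 0.99 under the drugs, with 0 of 19 genes passing the interaction, and the suppressive macrophage list 0.37 and 0.25. In the latter list Arg1 differed by 2.67 ± 0.42 under the drugs (interaction 0.50 ± 0.62), and Chil3 by 2.13 ± 0.28 (0.12 ± 0.41), with 0 of 12 genes passing the interaction. Ccl6 differed by 1.59 ± 0.26 (-0.20 ± 0.38). The control arms of Cxcl9, Arg1 and Chil3 were low under vehicle and under the drugs, so these are fitted differences. Lyve1 differed by -1.88 ± 0.45 under the drugs, against 1.52 under vehicle (interaction adjusted p = 0.0705). A p that misses the threshold does not show that the 2 effects are equal. The ratio of 3′ to 5′ control probe sets, a sign of RNA quality, was 0.18 to 0.28 (log2) on the 4 vehicle arrays and 0.60 to 1.65 on the drug-treated pmel-1 arrays. Under the drug combination it was 0.19 and 0.42 in control recipients and 0.86, 1.26 and 1.31 in pmel-1 recipients. The ratio therefore differed between the arms of the transfer comparison under the drugs. With that ratio as a covariate 0 genes passed the interaction, and 0 passed without control vehicle replicate 3. Within the vehicle comparison the ratio was 0.28 and 0.25 in control and 0.22 and 0.18 in pmel-1 tumours.

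**Figure D5:**
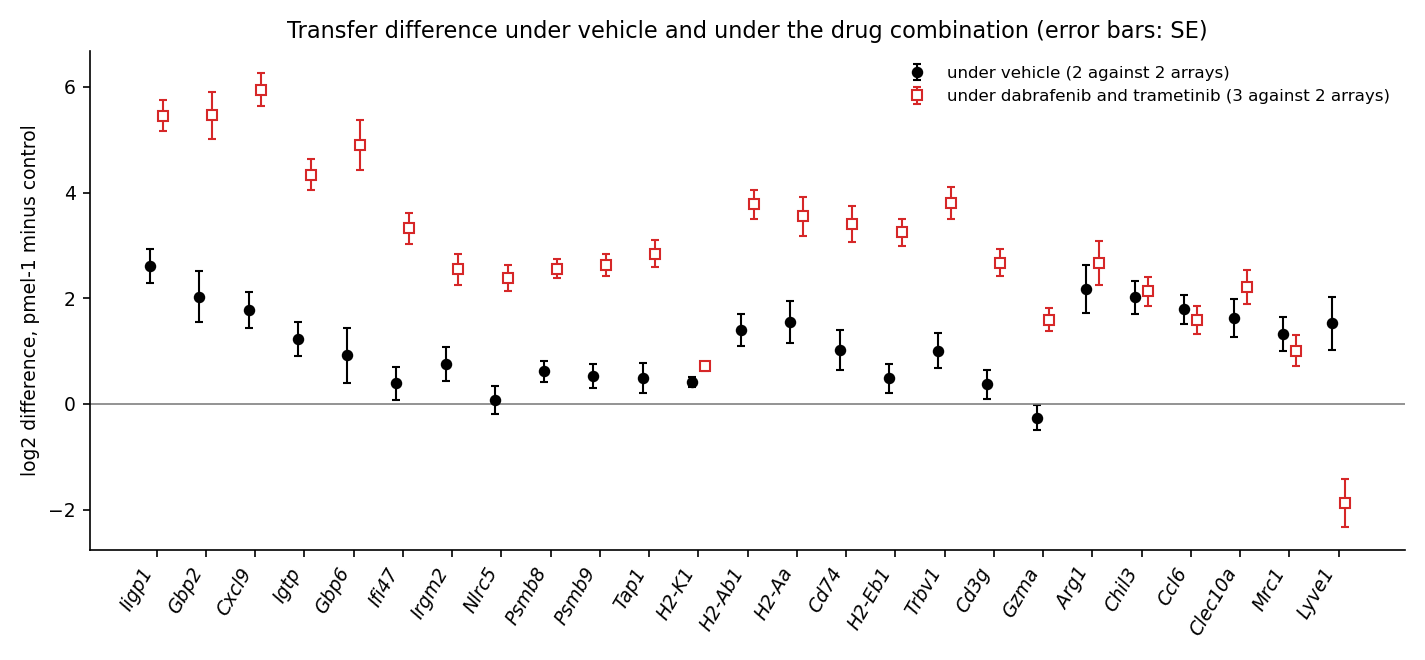
Log2 difference between pmel-1 and control recipients (y axis) for 25 genes, under vehicle (black, 2 against 2 arrays) and under dabrafenib with trametinib (red, 3 against 2 arrays), with bars for the SE. The interferon, MHC and T cell genes plotted have wider fitted gaps under the drugs, but Gbp2, Irgm2, H2-K1, H2-Aa and Cd74 did not pass the interaction. With the 3′ to 5′ ratio as a covariate 0 genes passed it. Arg1, Chil3, Ccl6, Clec10a and Mrc1 are higher in pmel-1 recipients in both, and none of them passed the interaction. Lyve1 has opposite signs.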

How the data were processed

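RNA of SM1 tumours was hybridised to 13 Affymetrix GeneChip mouse arrays. The authors deposited 1 log2 intensity for each probe set, made with RMA in the affy package per the submitters' processing notes, which give no versions. Of 45101 probe sets 34945 have 1 gene symbol in the platform annotation, 932 several, 9160 none, and 64 are array controls. Entrez numbers of 34741 matched RefSeq and 0 symbols were updated. The probe set with the highest mean was kept for each of 18193 genes, and 13785 genes were tested, those that exceeded 5.79, the 40th percentile of all values, on 2 or more of 13 arrays.

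Group means of all 6 groups were fitted in R 4.3.3 with limma 3.58.1 (lmFit and eBayes, 7 residual degrees of freedom), with Benjamini-Hochberg adjustment over all genes tested. The number of arrays limits the precision. On simulated data the fit recovered 83.0% of 2-fold and 98.0% of 4-fold changes in the vehicle contrast, with 6.22% false calls, and 69.0% and 96.0% in the interaction, with 4.07% false calls. In each simulation 100 genes were changed 2-fold and 100 were changed 4-fold, with no other difference between groups. The noise simulated was normal and independent between genes. Other numbers and sizes of change were not simulated, so these shares do not give the power in the real data.

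The comparison, the gene lists and the alternatives were chosen with earlier results of these data known. Genes named are the 10 with the smallest p with and without control replicate 3, the gene at the head of each list with further members of small p, and Pmel. Other genes were named after their values were seen. RIKEN, Gm and LOC symbols are not named. Motifs were searched in the RefSeq promoter windows. Alternatives were the arrays fitted, each replicate left out, the replicate number as a block, the 3′ to 5′ ratio as a covariate, median centring, array weights, the filter, the choice of probe set and the variance model.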

Additional observations from a re-analysis of the deposited data

Results flagged for a closer look

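For 18 of the genes followed, the transfer effect under the drug combination differed from that under vehicle (limma interaction, adjusted p under 0.05). In 17 the gap toward pmel-1 was wider under the drugs. Among interferon-inducible genes the difference between the effects, in log2, was 2.84 for Iigp1, 4.17 for Cxcl9, 3.11 for Igtp, 3.99 for Gbp6 and 2.93 for Ifi47. Nlrc5 differed by 2.31, Psmb8 by 1.94, Psmb9 by 2.10 and Tap1 by 2.35. Class II genes differed by 2.37 for H2-Ab1, 2.76 for H2-Eb1 and 1.79 for H2-DMa. T cell and leukocyte genes differed by 2.79 for Trbv1, 2.30 for Cd3g, 1.85 for Gzma, 1.79 for Cd52 and 2.16 for Ptprc. Cd3g and Gzma were low on all 4 vehicle arrays and were tested through other arrays where they were high, and the vehicle controls of Iigp1, Cxcl9, Gbp6 and Trbv1 were low too, so these 6 values are fitted differences that rest on low readings. Cd3g, Gzma, Cxcl9 and Trbv1 were also low in the control arm under the drugs, so they were tested through pmel-1 arrays alone. Their calls are therefore not independent of those levels. Zc3h6, a zinc finger gene, went the other way at -1.60, from 6.997 and 6.55 in control and 8.20 and 7.73 in pmel-1 tumours under vehicle. None of the 18 passed without control vehicle replicate 3 or with the 3′ to 5′ ratio as a covariate. Cxcl9 passed in 5 of the 9 fits that left out 1 array, more than any other of the 18, and Gbp6, H2-Ab1, H2-DMa, Cd52 and Ptprc in none.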

How the results depend on the processing

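Under vehicle the number of passing genes was 0 with both controls and stayed 0 under 7 of 14 alternatives: without control replicate 3, without pmel-1 replicate 1, with the replicate block, after median centring, at the stricter filter, over the mean of all probe sets and with a robust variance trend. It was 2 with only the arrays compared, 1 without the drug-treated pmel-1 arrays, 2 with the 3′ to 5′ ratio as a covariate, 5 with array weights and 3 without the filter. Leaving out 1 array gave 0 to 48. The interaction's 39 genes became 90 when the fit held no other arrays, 65 with array weights, 0 with the ratio as a covariate and 0 to 33 when 1 array was left out; the 1 replicate number shared by both vehicle arms gave deviations correlated at -0.02, and with the replicate block 1 gene passed the interaction. Leaving out 1 vehicle array turned the sign of 9 genes, whose lowest and highest differences were -3.28 and 0.35 for Acta1, -2.46 and 0.0332 for Tnnc2, -1.86 and 0.0607 for Col1a1, -1.88 and 0.19 for Col3a1, and -0.21 and 0.0823 for Gzmb, each highest without control replicate 3. They were -0.85 and 0.44 for Crmp1 and -1.001 and 0.27 for Serpini1, lowest without control replicate 3 and highest without control replicate 1. For Nlrc5 they were -0.0052 without control replicate 1 and 0.17 without control replicate 3. For Cd8a they were -0.0934 and 0.14, without pmel-1 replicate 1 and 2, with -0.0766 without control replicate 1, and Gzmb was 0.0346 without pmel-1 replicate 1. The causes of these changes were not tested.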

Other observations

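Several gene groups outside the immune and stromal lists also separated the arms. These lists were drawn up after values had been seen, so their counts describe the arrays and support nothing further, and the share of all genes above both control arrays was 20.1% and below them 26.4%. Of 33 ribosome biogenesis genes, 26 were below both control arrays and none above, with a median of -0.36 (-0.31 without control replicate 3). Rrp1b, a nucleolar processing factor, read 9.64 and 9.52 in control and 8.32 and 9.07 in pmel-1 tumours, and Dhx37, a helicase of the small ribosomal subunit, 7.56 and 7.81 against 6.90 and 6.89. Of 12 genes of replication licensing and origin firing, 9 were below and none above, among them Cdc7, a kinase that fires origins, at 9.49 and 9.66 against 8.71 and 8.83. The median of these 12 was -0.31 (-0.21 without control replicate 3, the highest array for 10 of them). Of 17 heat shock chaperones 9 were below and 1 above, with a median of -0.25 (-0.16 without control replicate 3), and Hspa1a and Hspa1b differed more between the pmel-1 arrays (10.62 and 8.80, 11.97 and 10.39) than between the arms.

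Immediate early genes went the other way, with 10 of 15 above both control arrays, none below and a median of 0.70. Control replicate 3 was the lowest array for all 15, and the median without it was 0.51. It was 0.38 without pmel-1 replicate 1 and 1.10 without pmel-1 replicate 2, and 1.06 without control replicate 1. Fos, a subunit of AP-1, read 10.94 and 10.33 against 12.28 and 11.20, and Atf3, a stress-induced factor, 8.01 and 7.44 against 9.57 and 8.88 (1.501 ± 0.24, adjusted p = 0.0712). Of 20 glucocorticoid-responsive genes 14 were above both control arrays, with a median of 0.65 (0.35 without control replicate 3, the lowest array for 16 of the 20). Per1, a clock gene, read 8.45 and 7.77 against 9.52 and 8.67, and Klf9 11.49 and 11.06 against 12.34 and 11.90, while Fkbp5 overlapped at 11.53 and 11.32 against 11.26 and 11.54.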
